A study of Homo sapiens with 9 samples.

Results

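RNA of HEK293T cells carrying an FHY1-M3 construct with a guide RNA (sgRNA, called guide below) against ACTB was compared with RNA of the same cells carrying the construct with a non-target guide. Libraries were placed in groups by their sample labels, and the comparison rests on 4 of the 9 libraries of the series, 2 for each guide. A further 2 libraries, with the same construct and a con guide, were used to estimate the spread between replicates and to see whether a difference was also present against another guide. HEK293T is a human embryonic kidney line that carries the SV40 large T antigen, and all libraries were made after removal of ribosomal RNA. The 6 libraries with a guide share the FHY1-M3 construct and differ, as far as the labels go, only in the guide. The labels do not say what M3 stands for, which light the cultures received, or whether total or immunoprecipitated RNA was sequenced. The con columns of the count table carry a name that includes ACTB while the sample titles do not, so whether the con cells also received the ACTB guide is not known. No label gives separate cultures for the replicates, so each p-value reflects how far these particular libraries vary, and that variation may be technical.

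The series concerns N6-methyladenosine (m6A), a methyl group on adenosines of messenger RNA that is written by a complex with METTL3 at its core, removed by demethylases and read by binding proteins that act on splicing, translation and decay. In plants FHY1 is a partner of the light receptor phytochrome A and takes it into the nucleus, and the series title speaks of editing this mark with red and far-red light. A guide RNA brings an effector to a chosen transcript, and ACTB, which encodes cytoplasmic beta-actin, is an abundant transcript used in many such tests. The counts of all genes were compared here between the guides, the targeted gene first.

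The 4 libraries held 3566249 and 3424940 counts (ACTB guide) and 3714910 and 2900021 counts (non-target guide), and the con libraries held 3802681 and 3752727. The 2 replicates of a guide were further apart than counting noise, at a chi-square on read pairs, per degree of freedom, of 4.59 for the ACTB guide, 3.35 for the con guide and 5.18 for the non-target guide. Markers of HEK293 cells were present with every guide: all 10 on the list were measured, at a summed level of 1361 and 1387 CPM (counts scaled to a common total, for the lists by the unscaled library total) with the ACTB guide and 1443 and 1361 CPM with the non-target guide. Among markers of other cell types, PTPRC, CD3E, HBA2, HBG2, COL1A2, TTR and KRT14 were at 0 in all 9 libraries. Others were detected, such as GAD1 (86 and 62 counts with the ACTB guide, 68 and 80 with the non-target guide) and KRT10 (68 and 56, 82 and 50). In the same order, the summed neuronal list was at 49.9 and 42.0 CPM against 45.2 and 53.1 CPM. The keratinocyte list was at 25.2 and 27.2 against 39.8 and 33.1 CPM, and the pluripotency list at 21.3 and 7.01 against 23.7 and 44.5 CPM. The summed level of the blood list was 11.8 and 9.93 CPM with the ACTB guide against 25.8 and 42.8 CPM with the non-target guide, and without the called gene HBG1 it was 42 and 34 counts against 24 and 46. The summed fibroblast list was at 33.1 and 26.9 against 53.6 and 55.2 CPM, and without COL1A1 at 28 and 34 counts against 17 and 36. HBG1 thus held the blood difference, and COL1A1 the fibroblast difference. In bulk RNA, fewer cells of a type and less RNA per cell cannot be told apart.

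The targeted gene, ACTB (chromosome 7, 5527148 to 5530601, GRCh38.p14), comes first. Its counts were 5007 and 4531 with the ACTB guide, 4980 and 3868 with the non-target guide, and 5289 and 5226 with the con guide. Scaled to library size with TMM factors, as for single genes below, these were 1405 and 1327 CPM, 1354 and 1336 CPM, and 1391 and 1388 CPM, so that the 2 ACTB guide values lay on either side of both non-target values. The log2 fold change of ACTB between the ACTB and non-target guide was 0.02 (SE 0.06, 95% interval -0.10 to 0.14, edgeR quasi-likelihood Benjamini-Hochberg adjusted p = 0.962), and no difference was detected. It was -0.02 without ACTB replicate 1. ACTG1, the other cytoplasmic actin, stood at 2224 and 2297 CPM with the ACTB guide and at 2170 and 2174 CPM with the non-target guide (log2 0.06, SE 0.05, adjusted p = 0.809). METTL3, the catalytic subunit of the m6A writer, was at 51.6 and 46.6 CPM against 52.7 and 48.7 CPM (log2 -0.05, SE 0.32, adjusted p = 0.989), with overlapping groups. These values count reads over a gene. The labels do not say whether total or immunoprecipitated RNA was sequenced. Whether the values reflect the amount of a transcript or m6A on it is therefore not known.

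Of 12808 genes with enough counts to test, 32 passed an adjusted p of 0.05, which is 0.25% of them. With the ACTB guide 7 genes were higher (0.0547%) and 25 lower (0.195%). The genes at an unadjusted p under 0.05 were nearly balanced, with 483 higher and 518 lower (7.82% together), and the median log2 fold change over all genes tested was -0.000456. The ACTB and non-target libraries did not overlap for all 32 genes, and 4480 of the genes tested (35%) met that looser mark. The 25 lower genes fell into a group of 22 with few or no counts except in the non-target libraries, and a group of 3, JPH3 and COL5A1 among them, measured with every guide. DESeq2 called 66 genes, 16 higher and 50 lower. Without ACTB replicate 1 or 2 the edgeR count was 19, without non-target replicate 1 it was 18, and with all 9 libraries in the fit it was 16.

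**Figure D1:**
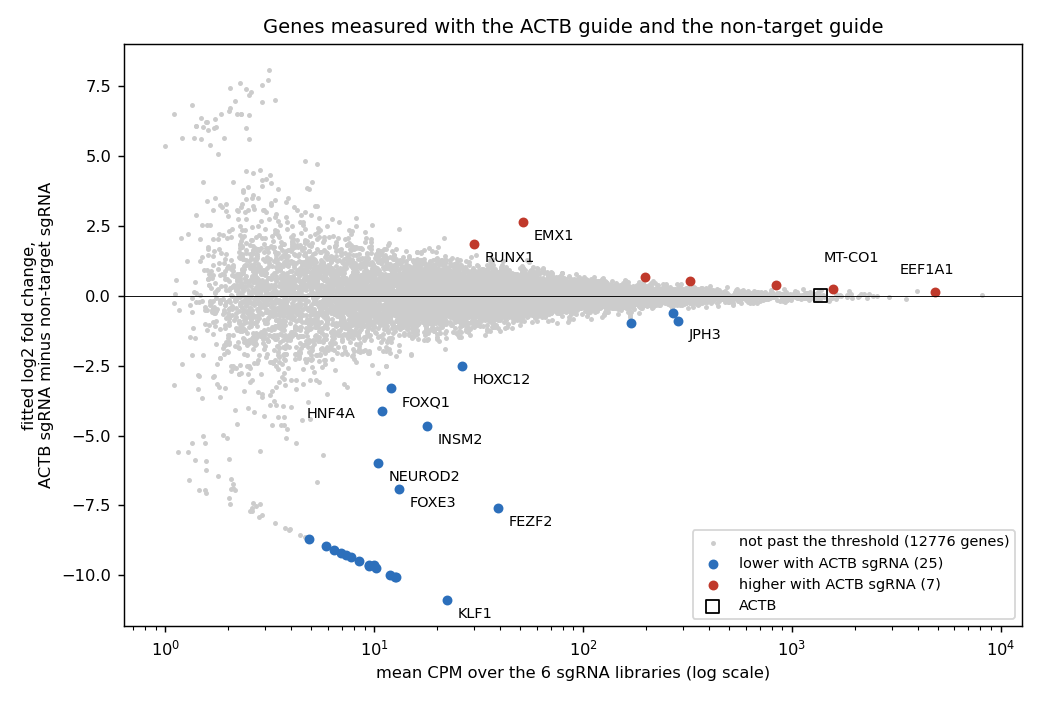
Fitted log2 fold change of each gene tested, ACTB guide minus non-target guide, against its mean CPM over the 6 libraries with a guide on a log axis, with genes past the adjusted p of 0.05 in red (7 higher) and blue (25 lower) and ACTB as an open square. The most negative values belong to genes at 0 in both ACTB guide libraries, whose fitted fold depends on the prior count, and ACTB lies at the zero line.

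Promoter sequences are shown for 4 genes on which the comparison turns, 3 of them at 0 in both ACTB guide libraries (KLF1, MEOX2 and FOXI1) and 1 higher with the ACTB guide (RUNX1). They are RefSeq sequences of GRCh38.p14 from 250 bases before to 50 after an annotated start, written 5′ to 3′ along the gene's strand, with CG dinucleotides in capitals. KLF1 lies at chr19:12887152-12887451 on the minus strand and MEOX2 at chr7:15686634-15686933 on the minus strand. FOXI1 lies at chr5:170105647-170105946 on the plus strand and RUNX1 at chr21:34888650-34888949 on the minus strand. The RUNX1 window lies within the gene, which spans 34787801 to 35049302, so the outermost 5′ end of RUNX1 is not shown.
KLF1: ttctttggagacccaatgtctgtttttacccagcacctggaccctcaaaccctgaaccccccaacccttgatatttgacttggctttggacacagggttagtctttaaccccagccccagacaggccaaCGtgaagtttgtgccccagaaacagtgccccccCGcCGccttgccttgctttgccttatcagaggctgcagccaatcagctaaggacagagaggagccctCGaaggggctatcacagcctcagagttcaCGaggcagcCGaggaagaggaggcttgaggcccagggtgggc
MEOX2: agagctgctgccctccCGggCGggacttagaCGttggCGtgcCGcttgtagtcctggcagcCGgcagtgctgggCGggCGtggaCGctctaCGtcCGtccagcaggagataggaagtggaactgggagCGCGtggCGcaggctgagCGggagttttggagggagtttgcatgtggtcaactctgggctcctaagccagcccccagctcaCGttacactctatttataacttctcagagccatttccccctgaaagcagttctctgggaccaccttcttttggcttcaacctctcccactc
FOXI1: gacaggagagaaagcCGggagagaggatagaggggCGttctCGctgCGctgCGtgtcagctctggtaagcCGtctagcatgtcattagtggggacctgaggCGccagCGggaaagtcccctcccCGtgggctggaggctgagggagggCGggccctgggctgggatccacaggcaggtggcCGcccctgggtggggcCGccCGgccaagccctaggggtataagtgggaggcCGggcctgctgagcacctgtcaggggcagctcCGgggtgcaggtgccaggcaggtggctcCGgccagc
RUNX1: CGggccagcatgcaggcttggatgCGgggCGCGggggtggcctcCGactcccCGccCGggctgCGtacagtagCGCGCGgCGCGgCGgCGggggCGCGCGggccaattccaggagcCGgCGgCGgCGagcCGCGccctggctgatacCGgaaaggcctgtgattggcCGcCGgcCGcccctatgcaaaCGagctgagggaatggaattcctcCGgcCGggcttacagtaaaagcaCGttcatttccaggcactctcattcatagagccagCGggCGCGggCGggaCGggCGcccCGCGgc
KLF1 had 6 CG dinucleotides in its 300 bases and a GC content of 57.0%, MEOX2 and FOXI1 had 16 each at 59.7% and 69.7%, and RUNX1 had 40 at 72.0%. Of the 15 called genes at 0 in both ACTB guide libraries, 10 had a window in the RefSeq table, with a median GC content of 68.2% and a median of 21.5 CG dinucleotides (6 to 48). The 10133 tested genes with a window had medians of 65.7% and 27. Searched on both strands, TATAAA was in 1 of the 10 windows (10% against 5.28% of the tested genes and 12% of all 27305 promoters). GGGCGG, a GC box, was in 7 (70% against 71.4% and 44.6%), and CCAAT in 4 (40% against 36.5% and 35.7%). MEOX2 held TATAAA, MEOX2, FOXI1 and RUNX1 held GGGCGG, and KLF1 and RUNX1 held CCAAT. The shares of the 10 windows were close to those of the genes tested, and a match is a run of letters, not a measured site.

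The lower genes are arranged below by known role, a grouping made after their values were seen and not tested. Regulators of the nervous system come first. FEZF2, a zinc finger factor of forebrain neurons (chromosome 3, 62369681 to 62373550), held 412 and 354 counts with the non-target guide, 0 and 4 with the ACTB guide, and 0 in both con libraries. The non-target level of FEZF2 was 117 ± 7.29 CPM (SD, n = 2), and the ratio of non-target to ACTB read pairs was 203 (95% counting interval 55.9 to 1685; log2 -7.58, SE 0.60, adjusted p = 2.78e-12). The non-target libraries were high and the other 4 were near 0, without overlap. NEUROD2, a bHLH factor of neuronal differentiation, held 114 and 82 counts against 0 and 3 (ratio 52.0, interval 14.02 to 436, adjusted p = 0.000401) and had 6 and 2 with the con guide. INSM2, a zinc finger factor of neuroendocrine cells, was the one gene of this group with counts in both ACTB guide libraries, at 8 and 6 against 232 and 114 (log2 -4.65, SE 0.66, adjusted p = 1.24e-05). LHX5, a LIM homeobox factor of the forebrain, held 140 and 96 counts with the non-target guide and none with the ACTB guide (at least 41.8-fold lower, adjusted p = 2.73e-06). LMX1A, a LIM homeobox factor of midbrain dopamine neurons, held 92 and 48 against none (at least 24.8-fold, adjusted p = 0.00172). Bounds were taken against 3 read pairs over the 2 libraries of a group. That is 6 counts, since both mates of a pair appear to have been counted. Intervals cover counting error only. Bounds divide the observed non-target level by that limit and make no allowance for counting error in the non-target counts. Without non-target replicate 1 the adjusted p was 0.0921 for NEUROD2, 0.0635 for INSM2 and 0.292 for LMX1A, and LMX1A also passed no longer without ACTB replicate 1 (0.0609) or 2 (0.0587) and with 9 libraries in the fit (0.0836).

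Homeobox genes of mesoderm and body axis were also at 0 with the ACTB guide, with 1 exception. MEOX2, a factor of somites and limb muscle (chromosome 7, 15611212 to 15686683), held 144 and 108 counts with the non-target guide and 0 in each of the ACTB and con libraries. The level of MEOX2 was lower with the ACTB guide by at least 44.6-fold (adjusted p = 1.4e-06). EVX1, a factor of the primitive streak and spinal interneurons, held 88 and 58 counts against none (at least 25.8-fold lower, adjusted p = 0.000963). IRX1, an Iroquois factor of limb and lung patterning, held 52 and 44 against none (at least 17.0-fold, adjusted p = 0.0409), and GSC2, a goosecoid-related factor, 70 and 46 against none (at least 20.5-fold, adjusted p = 0.00931). The exception was HOXC12, a posterior HOX factor, which was detected in both ACTB guide libraries and differed widely between them. HOXC12 held 8 and 72 counts with the ACTB guide, 250 and 188 with the non-target guide and 0 and 4 with the con guide, so the ACTB guide libraries stood between the other groups. Its log2 fold change was -2.51 (SE 0.56, adjusted p = 0.0252) against the non-target guide and 4.37 (SE 0.81, adjusted p = 0.0132) against the con guide.

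Several of these homeobox calls were lost when a library was left out. With an ACTB or non-target library left out, the fitted log2 fold change of IRX1 stayed between -8.73 and -8.69. That of GSC2 stayed between -9.12 and -8.80. The adjusted p of EVX1 was 0.223 without non-target replicate 1 and 0.0602 with 9 libraries in the fit. For IRX1 it was 0.304 and 0.382 without ACTB replicates 1 and 2, and 0.319 and 0.227 without non-target replicates 1 and 2. For GSC2 these values were 0.149, 0.184, 0.306 and 0.0977. With all 9 libraries in the fit the adjusted p of IRX1 was 0.578 and that of GSC2 was 0.221. HOXC12 was at 0.416 (log2 -1.65) without ACTB replicate 1, at 0.292 and 0.151 without non-target replicates 1 and 2, at 0.877 with 9 libraries and at 0.565 in DESeq2. Against the con guide the HOXC12 call was lost without ACTB replicate 2 (adjusted p = 1 at a log2 of 2.01), without con replicate 1 (0.182), without non-target replicates 1 (0.141) and 2 (0.081), with 9 libraries (0.752) and in DESeq2 (0.65).

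Forkhead factors, which share a winged-helix DNA-binding domain, made up 4 of the lower genes. FOXI1, a regulator of proton-secreting cells in kidney and inner ear (chromosome 5, 170105897 to 170109737), held 146 and 104 counts with the non-target guide and 0 with both other guides. The level of FOXI1 was lower with the ACTB guide by at least 44.2-fold (adjusted p = 1.4e-06). FOXE3, a lens factor, held 140 and 116 counts with the non-target guide and 0 and 2 with the ACTB guide (ratio of read pairs 136, interval 23.9 to 5408; adjusted p = 7.34e-06). FOXS1 held 96 and 86 counts with the non-target guide, none with the ACTB guide and 0 and 16 with the con guide (at least 32.2-fold lower, adjusted p = 0.000178, and 0.247 in DESeq2). FOXQ1, an epithelial factor, held 112 and 76 counts against 14 and 6 (log2 -3.30, SE 0.78, adjusted p = 0.0479), and had 4 and 32 with the con guide. The groups did not overlap for these 4 genes, and FOXQ1 was the one with counts in all 6 libraries. FOXQ1 lost its call without ACTB replicates 1 (0.164) and 2 (0.603), non-target replicates 1 (0.324) and 2 (0.151), with 9 libraries (1) and with library-size scaling (0.0507).

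Genes of the blood lineage formed a further group of 3. KLF1, the erythroid zinc finger activator of globin genes (chromosome 19, 12884422 to 12887201), held 258 and 182 counts with the non-target guide, 0 with the ACTB guide and 1 and 0 with the con guide. Its non-target level was 66.5 ± 5.13 CPM (SD, n = 2), and with the ACTB guide it was lower by at least 77.8-fold (adjusted p = 3.02e-10). LYL1, a bHLH factor of blood progenitors, held 128 and 64 counts against none (at least 34.0-fold lower, adjusted p = 5.04e-05, and 0.155 without non-target replicate 1). HBG1, a fetal gamma-globin chain, held 72 and 78 counts against none (at least 26.5-fold, adjusted p = 0.000605, and 0.0928 without non-target replicate 2). HBG2, its near-identical neighbour, was listed at 0 in every library, so how reads were shared between these copies is uncertain. PTPRC, which marks leukocytes, was at 0 in all 9 libraries.

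The remaining low genes had varied roles. FGF3, a secreted fibroblast growth factor, held 112 and 76 counts with the non-target guide and 0 with both other guides (at least 33.3-fold lower with the ACTB guide, adjusted p = 5.04e-05). LDB2, a cofactor of LIM-domain proteins, held 78 and 86 against none (at least 29.0-fold, adjusted p = 0.00021, and 0.0691 without non-target replicate 2). HNF4A, a nuclear receptor of liver and kidney epithelium, held 130 and 76 counts against 2 and 10 (log2 -4.12, SE 0.85, adjusted p = 0.00915). KDM5D, a histone H3 lysine demethylase encoded on chromosome Y (19703865 to 19744726), was at 0 in the ACTB, con and input libraries. It held 86 and 44 counts with the non-target guide (at least 23.0-fold lower with the ACTB guide, adjusted p = 0.0036). Of these, FGF3 alone passed with every library left out in turn. HNF4A lost its call without ACTB replicate 1 (0.229) or non-target replicate 1 (0.33) or 2 (0.0658) and with 9 libraries (0.42). KDM5D lost it without ACTB replicate 1 (0.0946) or 2 (0.0992) or non-target replicate 1 (0.319) and with 9 libraries (0.132).

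**Figure D2:**
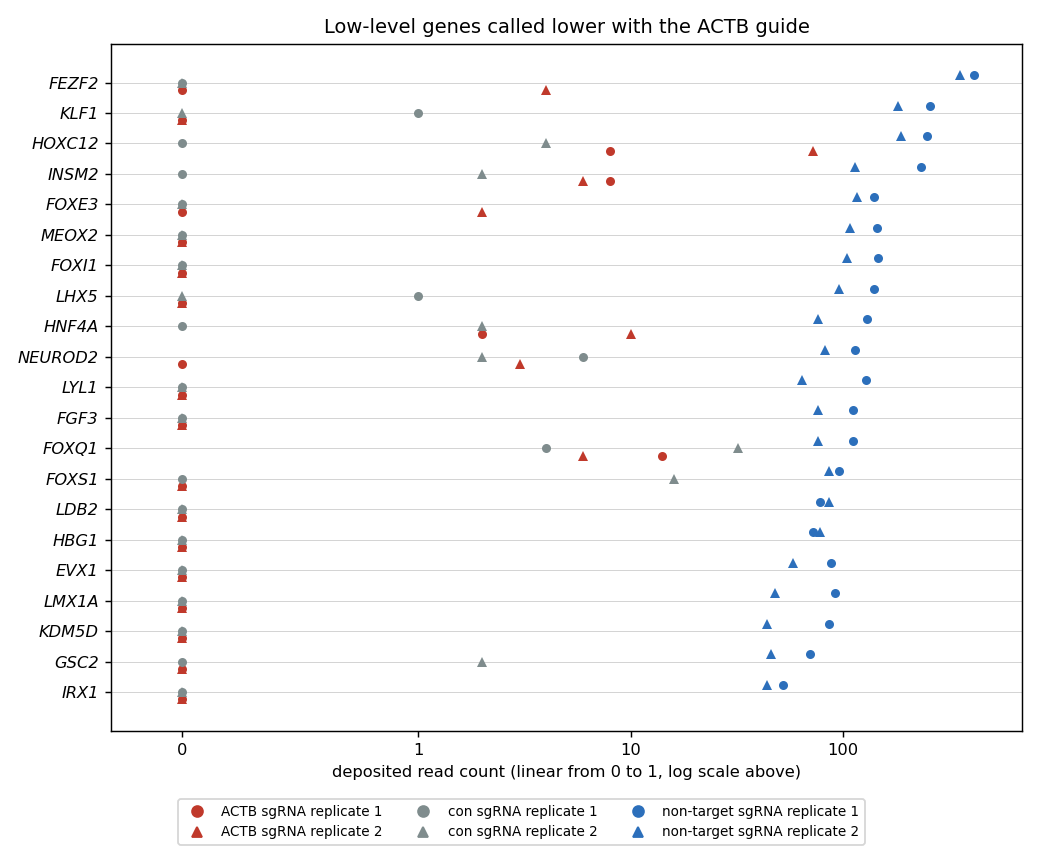
Deposited read counts (x axis, linear from 0 to 1 and logarithmic above) of 21 of the 22 low-level genes that were lower with the ACTB guide, in each of the 6 libraries with a guide, with colour for the guide and symbol for the replicate. The non-target libraries lie at 44 counts or more for every gene, and the ACTB and con libraries lie at or near 0 for all but HOXC12, INSM2, HNF4A, NEUROD2, FOXQ1 and FOXS1.

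The con libraries were set beside these values to see whether the low level was particular to the ACTB guide. Of the 25 lower genes, 15 were at 0 in both ACTB guide libraries, and 15 held at most 1 count in each con library. For genes that were low with both the ACTB and the con guide, what the ACTB guide did and what set the non-target libraries apart cannot be told apart. Of those 15 genes low with the con guide, 12 were also at 0 in all 3 input libraries, which are shallower (350413 to 643954 counts). On the homeobox, forkhead, KLF/SP, bHLH or SOX/GATA/RUNX/T-box lists were 14 of the 25 lower genes (56%) and 2 of the 7 higher genes (28.6%). The same lists held 329 of the 19969 genes in the table (1.65%) and 252 of the 12808 genes tested. The lists were chosen with earlier results of these data known. A low gene passed the count filter only through the group where it was present. These shares therefore describe the calls and are not support for a trend.

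A scan of all 19969 genes, without a filter, asked which genes had at most 1 count in both libraries of one guide and at least 20 in both of another. It found 28 genes (0.14%) absent with the ACTB guide and present with the non-target guide, and 1 gene (0.00501%) in the opposite direction. Between the con and non-target guides it also found 28 genes (0.14%) absent with the con guide, and 1 (0.00501%) absent with the non-target guide, and both comparisons share the non-target libraries. Of the 28 absent with the ACTB guide, 15 had passed the test and 14 (50%) were on the transcription factor lists. Those that had not passed included NANOG, a homeobox factor of pluripotent cells, with 28 and 36 counts in the non-target libraries and 0 with both other guides (adjusted p = 0.25, and 0.0192 in DESeq2). MYOCD, the smooth muscle coactivator of serum response factor, held 32 and 56 counts against none (adjusted p = 0.0645). The scan also held GRHL2, an epithelial factor (52 and 26, adjusted p = 0.144), HOXB1, a hindbrain HOX factor (42 and 32, adjusted p = 0.165, and 0.00785 in DESeq2), and RHOXF2, a germ cell homeobox factor (64 and 26, adjusted p = 0.0807). LIN28A, MYT1L, GSX2, FOXR1, HSF5 and ISX were among the others, at 20 to 36 counts in each non-target library. In the opposite direction MUC17, a membrane mucin, held 38 and 28 counts with the ACTB guide and 0 in the 4 other guide libraries (unadjusted p = 0.00147, adjusted p = 0.277). Between the ACTB and con guides the scan found 2 genes (0.01%) present with the ACTB guide and absent with the con guide, MUC17 and OVOL1. It found 1 gene (0.00501%) in the opposite direction, RET. OVOL1 also held 4 and 0 counts in the non-target libraries. Genes with at least 20 counts in a single library and at most 1 in the other 5 numbered 13 and 7 in the ACTB guide libraries and 8 and 3 in the non-target libraries. A limit of at most 3 and at least 40 counts, chosen after the data were seen, gave 18 genes in place of the 28.

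EMX1 and RUNX1 were the transcription factors that were higher with the ACTB guide. EMX1, a homeobox factor of the dorsal forebrain (chromosome 2, 72916189 to 72934891), stood at 68.5 and 70.6 CPM with the ACTB guide and at 4.89 and 18.0 CPM with the non-target guide. With the con guide it was at 79.4 and 67.2 CPM, so the non-target libraries were low and the 4 others high. The log2 fold change was 2.64 (SE 0.39, adjusted p = 3.46e-05) against the non-target guide and -0.08 (adjusted p = 1) against the con guide. It was 1.95 without non-target replicate 1 and 3.82 without non-target replicate 2, and the call held in all 15 alternatives. RUNX1, a factor of blood stem cells (chromosome 21, 34787801 to 35049302), stood at 45.7 and 47.2 CPM with the ACTB guide, 36.6 and 25.2 CPM with the con guide, and 11.4 and 14.5 CPM with the non-target guide. The 3 groups did not overlap, and the log2 fold change was 1.84 (SE 0.42, adjusted p = 0.0335) against the non-target guide and 0.59 (SE 0.40, adjusted p = 1) against the con guide. RUNX1 lost its call without any of 5 libraries, namely ACTB replicates 1 (0.208) and 2 (0.317), con replicate 1 (0.0567), and non-target replicates 1 (0.292) and 2 (0.0798), and with only the 4 libraries compared in the fit (0.113).

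For JPH3 and COL5A1, lower genes that were present with every guide, both ACTB libraries lay below the libraries of both other guides. JPH3, a junctophilin that joins the endoplasmic reticulum to the plasma membrane in excitable cells (chromosome 16, 87601835 to 87698156), held 608 and 642 counts with the ACTB guide, 1164 and 1038 with the non-target guide, and 1042 and 1488 with the con guide. In CPM these were 171 and 188, 316 and 359, and 274 and 395, with the ACTB guide libraries below all 4 others. The log2 fold change of JPH3 was -0.91 (SE 0.14, 95% interval -1.20 to -0.62, adjusted p = 9.49e-05) against the non-target guide and -0.90 (SE 0.14, adjusted p = 0.00144) against the con guide. Between the con and non-target guide it was -0.01 (adjusted p = 0.999). COL5A1, a fibrillar collagen chain (chromosome 9, 134641803 to 134844843), stood at 191 and 209 CPM against 283 and 324 CPM with the non-target guide and 268 and 337 CPM with the con guide. Its log2 fold change was -0.60 (SE 0.14, adjusted p = 0.0373) against the non-target guide, and also -0.60 against the con guide, where it missed the threshold (adjusted p = 0.161). These contrasts share the ACTB guide libraries and are therefore not independent of each other.

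Leaving out libraries changed some of these calls. Against the non-target guide, JPH3 kept its call without each library in turn and lost it with 9 libraries in the fit (adjusted p = 0.202). COL5A1 lost it without ACTB replicate 1 (0.391) or 2 (0.203), without non-target replicate 1 (0.0861) or 2 (0.249), and with 4 (0.105) or 9 libraries (1) in the fit. Against the con guide, JPH3 lost its call without ACTB replicate 1 (0.271) or 2 (0.0698), without con replicate 2 (log2 -0.62, adjusted p = 1) and with 9 libraries (1). COL1A1, a marker on the fibroblast list and another fibrillar collagen, did not pass the test, at 25.3 and 17.0 CPM against 49.5 and 42.8 CPM (log2 -1.13, SE 0.41, adjusted p = 0.466), while COL1A2 was at 0. The part of other cell types in the COL5A1 difference was not tested.

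Of the higher genes with ample counts, UBE2S and PPP2R1A showed the larger folds. UBE2S, the ubiquitin-conjugating enzyme that extends chains for the anaphase-promoting complex (chromosome 19, 55399745 to 55407788), stood at 377 and 430 CPM with the ACTB guide, 304 and 249 CPM with the non-target guide and 309 and 294 CPM with the con guide. It was higher in both ACTB guide libraries than in the other 4 (log2 0.54, SE 0.12, adjusted p = 0.0335 against the non-target guide, and 0.42, adjusted p = 1, against the con guide). PPP2R1A, the scaffold subunit of protein phosphatase 2A (chromosome 19, 52190052 to 52229518), stood at 222 and 260 CPM with the ACTB guide, 153 and 153 CPM with the non-target guide and 209 and 193 CPM with the con guide (log2 0.66, SE 0.16, adjusted p = 0.0479 against the non-target guide, and 0.27, adjusted p = 1, against the con guide). UBE2S lost its call without ACTB replicate 1 (0.0857) or 2 (0.66), without non-target replicate 2 (0.281), and with 4 (0.0963) or 9 libraries (1). PPP2R1A lost it when any 1 library with a guide was left out (ACTB replicates 1 and 2 at 0.0947 and 0.68, con replicates at 0.0812 and 0.0778, non-target replicates at 0.267 and 0.161), with 4 (0.148) or 9 libraries (1), with relative log expression (RLE) size factors (0.0529) and under a minimum mean of 10 CPM (0.0522).

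EEF1A1 and MT-CO1 were abundant and rose by small amounts. EEF1A1, the elongation factor that carries aminoacyl-tRNA to the ribosome (chromosome 6, 73515750 to 73521032), stood at 5130 and 5067 CPM against 4637 and 4626 CPM (log2 0.14, SE 0.03, adjusted p = 0.0277), with 4971 and 4722 CPM for the con guide. MT-CO1, the mitochondrially encoded core subunit of cytochrome c oxidase, was at 1821 and 1723 CPM with the ACTB guide, 1546 and 1443 CPM with the non-target guide and 1421 and 1459 CPM with the con guide. MT-CO1 was the one higher gene past the threshold against both guides (log2 0.25, SE 0.06, adjusted p = 0.0335, and 0.30, SE 0.06, adjusted p = 0.0132). Both have pseudogene copies in the nuclear genome, and how the authors' counting shared reads among them is uncertain.

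Whether these small rises passed the threshold depended on the libraries used. Against the non-target guide, the log2 fold change over the 15 alternatives was 0.133 to 0.148 for EEF1A1 and 0.1965 to 0.2944 for MT-CO1. EEF1A1 lost its call without ACTB replicate 1 (0.229) or 2 (0.142) or non-target replicate 1 (0.174) or 2 (0.0928), and with 4 (0.0572) or 9 libraries (1). MT-CO1 lost it without ACTB replicate 1 (0.408) or 2 (0.0867) or non-target replicate 2 (0.233), and with 4 (0.0859) or 9 libraries (0.285). Against the con guide, MT-CO1 lost its call without ACTB replicate 1 (0.612) or 2 (0.102) or con replicate 1 (0.182) or 2 (0.159), and with 9 libraries (0.488).

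**Figure D3:**
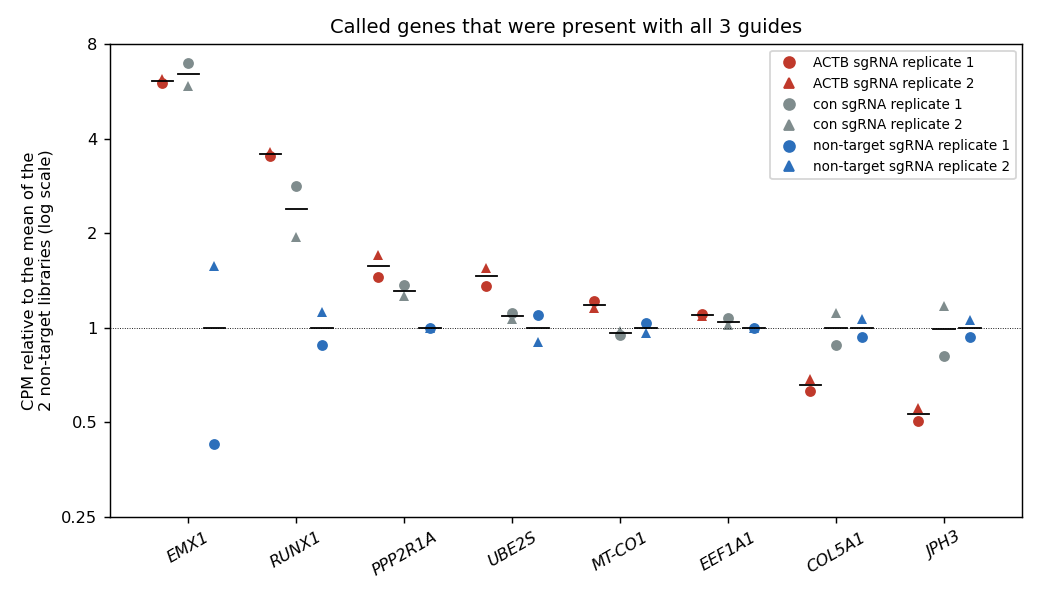
CPM of 8 called genes in each of the 6 libraries with a guide, divided by the mean of the 2 non-target libraries and drawn on a log axis, with short bars at the mean of each guide. EMX1 and RUNX1 are high with the ACTB and con guide, while COL5A1 and JPH3 are low with the ACTB guide alone.

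Against the con guide, 4 of 12808 genes passed the adjusted threshold (0.0312%), 2 higher (0.0156%) and 2 lower (0.0156%), and 494 met an unadjusted p of 0.05 (3.86%). JPH3, MT-CO1 and HOXC12 were among them and had also passed against the non-target guide, in the same direction for JPH3 and MT-CO1 and the opposite one for HOXC12. DESeq2 called 5 genes. No gene passed without ACTB replicate 2 or with 9 libraries, 1 passed without ACTB replicate 1 or con replicate 2, and 2 passed without non-target replicate 1 or 2.

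**Figure D4:**
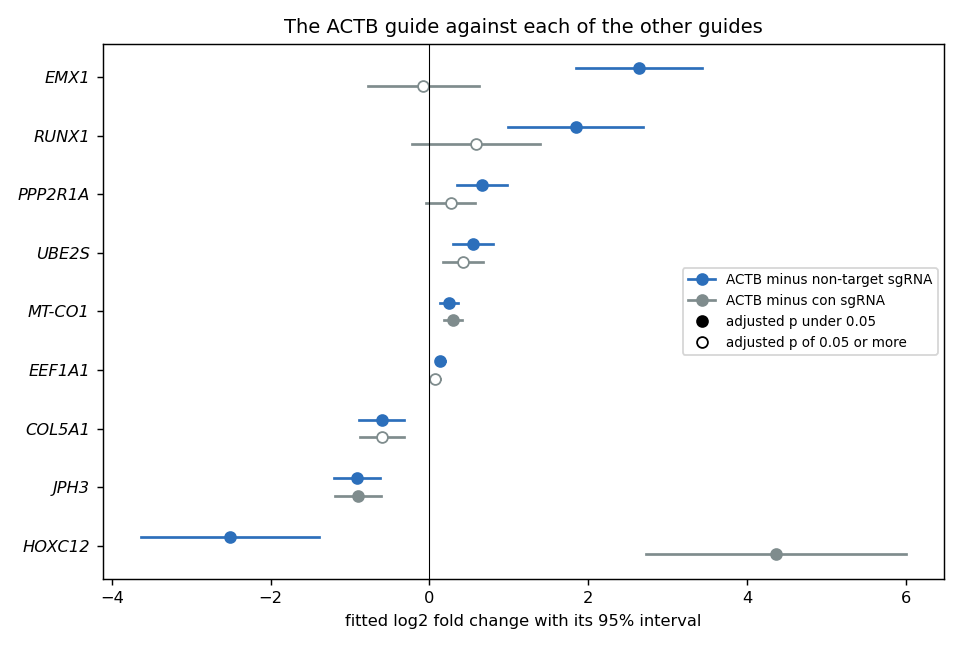
Fitted log2 fold change with its 95% interval for 9 called genes, ACTB minus non-target guide in blue and ACTB minus con guide in grey, with filled points where the adjusted p was under 0.05. JPH3 and MT-CO1 keep their side of zero in both contrasts, EMX1 lies near zero against the con guide, and HOXC12 changes sign.

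Lists of genes around the target and the construct were then read against the background of 0.25% of genes called, where a measured gene is one that passed the count filter. On the list of actins and actin-related genes 15 of 20 were measured and none passed in edgeR or DESeq2, with 1 higher and 2 lower at an unadjusted p under 0.05 and a median log2 fold change of 0.06. ACTR5, a subunit of the INO80 chromatin remodeller, had the largest unadjusted signal (8.42 and 13.5 against 25.8 and 29.7 CPM, log2 -1.34, SE 0.50, adjusted p = 0.475). Of 58 measured actin-binding and filament regulators none passed in either tool, while 5 were lower and 0 higher without adjustment (median -0.07). CORO1C, a coronin of the cell cortex, was at 95.7 and 85.0 against 149 and 124 CPM (log2 -0.60, SE 0.21, adjusted p = 0.427). Targets of serum response factor and its actin-controlled cofactors numbered 19, none past the threshold in either tool and 1 higher without adjustment (median 0.12). That gene was PDLIM7, a filament scaffold, at 56.7 and 38.7 against 22.8 and 33.2 CPM (log2 0.77, SE 0.36, adjusted p = 0.607).

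All 27 listed m6A writers, erasers and readers that the table holds were measured, and none passed in edgeR or DESeq2, with 1 higher and 2 lower at an unadjusted p under 0.05 (median -0.06). RBM15B, an adaptor of the writer complex, was at 209 and 253 CPM with the ACTB guide against 293 and 290 CPM (log2 -0.34, SE 0.14, adjusted p = 0.54). HNRNPA2B1, a nuclear RNA-binding protein counted among the readers, was at 1217 and 1223 against 1293 and 1403 CPM (log2 -0.14, SE 0.06, adjusted p = 0.574). IGF2BP2, a reader that stabilises transcripts, was at 111 and 169 against 90.8 and 109 CPM (log2 0.49, SE 0.21, adjusted p = 0.58).

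The transcription factor lists held 16 of the 32 calls. Of 128 measured genes on the homeobox list, which does not include GSC2, 1 was higher (EMX1) and 6 lower, and 7 were higher and 15 lower without adjustment (median -0.08). Of 40 forkhead genes 4 were lower and none higher, with 1 higher and 8 lower without adjustment (median -0.05). Of 30 bHLH genes 3 were lower and none higher, with 0 higher and 7 lower without adjustment and a median of -0.34, which ran from -0.73 to -0.12 over the alternatives. KLF and SP factors (23 measured, median -0.01) had 1 lower, KLF1, and the SOX, GATA, RUNX and T-box list (31 measured, median 0.02) had 1 higher, RUNX1. Together 252 of 329 family members were measured, 2 higher and 14 lower. Each ACTB guide library had 179 of them at 20 counts or more, the con libraries had 184 and 190, and the non-target libraries had 205 and 201. Their summed level was 9239 and 9026 CPM with the ACTB guide, 9091 and 8990 CPM with the con guide and 9475 and 9355 CPM with the non-target guide. Both ACTB libraries were below both non-target libraries in that number and in summed level. Since a low gene passed the count filter only through the group where it was present, these counts describe the members and are not support for a trend. Of 6 measured FGF ligands 1 was lower, FGF3 (median 0.27), and of 10 WNT ligands none passed in either tool, with 1 lower without adjustment (median -0.15). Of 4 measured pluripotency markers none passed in edgeR and 2 were lower without adjustment, NANOG and LIN28A. DESeq2 called 1 lower, NANOG. The list median was -4.03, or -1.71 with genes at 0 set at their bound. POU5F1 went the other way, at 12 and 8 counts with the ACTB guide against 0 and 4.

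Housekeeping lists held few calls. Of 77 ribosomal protein genes 1 was higher, with 6 higher and 3 lower without adjustment and a median of -0.00346, which is close to that of all genes. RPS2, of the small subunit, was at 4280 and 4144 against 4038 and 3489 CPM (log2 0.16, SE 0.04, adjusted p = 0.136), and it passed without non-target replicate 1 (0.00434), con replicate 1 (0.0104) or con replicate 2 (0.0113). RPL29 was at 1203 and 1216 against 952 and 1076 CPM (log2 0.25, SE 0.07, adjusted p = 0.138, and 0.0328 in DESeq2), and RPL26 went the other way at 269 and 253 against 336 and 365 CPM (log2 -0.42, SE 0.12, adjusted p = 0.26, and 0.0408 in DESeq2). Of 51 translation factors 1 was higher, EEF1A1, with 4 higher and 3 lower without adjustment (median 0.04). EIF3F, a subunit of the initiation factor that loads the small subunit, was at 246 and 282 against 189 and 175 CPM (log2 0.54, SE 0.15, adjusted p = 0.22, and 0.0403 in DESeq2). Of 13 mitochondrial mRNAs 1 was higher, MT-CO1, while MT-CO3 had a log2 fold change of 0.25 (SE 0.10, adjusted p = 0.532) and MT-ND5 of -0.18 (SE 0.08, adjusted p = 0.57), with a list median of -0.01.

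None of the 26 heat shock proteins and cochaperones passed in edgeR, with 2 higher and 4 lower without adjustment. The list median was -0.11. DNAJA1, an HSP40 cochaperone, was at 366 and 390 against 484 and 500 CPM (log2 -0.38, SE 0.10, adjusted p = 0.173, and 0.00616 in DESeq2), and STIP1, which links HSP70 to HSP90, was at 605 and 554 against 672 and 728 CPM (log2 -0.27, SE 0.09, adjusted p = 0.339). None of 14 interferon-stimulated genes passed in edgeR, with or without adjustment, or in DESeq2 (median 0.21). None of 22 p53 targets (1 higher and 2 lower without adjustment, median -0.04), 31 mitosis genes (0 and 1, median 0.01), 16 reference genes (1 and 0, median 0.06) or 10 HEK293 markers (1 and 0, median 0.03) passed in edgeR or DESeq2. GAPDH, the glycolytic enzyme often used as a reference, was at 1959 and 2044 against 1760 and 1817 CPM (log2 0.16, SE 0.05, adjusted p = 0.321). Among 18 PP2A subunits PPP2R1A was the one call, with 1 higher and 2 lower without adjustment (median 0.10), and among 33 ubiquitin-conjugating enzymes it was UBE2S, with 2 higher and 0 lower (median 0.05). Of the lists for other cell types, the blood list had 1 lower (HBG1) of 3 measured, the fibroblast list none of 3, the neuronal list none of 4 and the keratinocyte list none of 2, and no hepatocyte marker was measured.

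**Figure D5:**
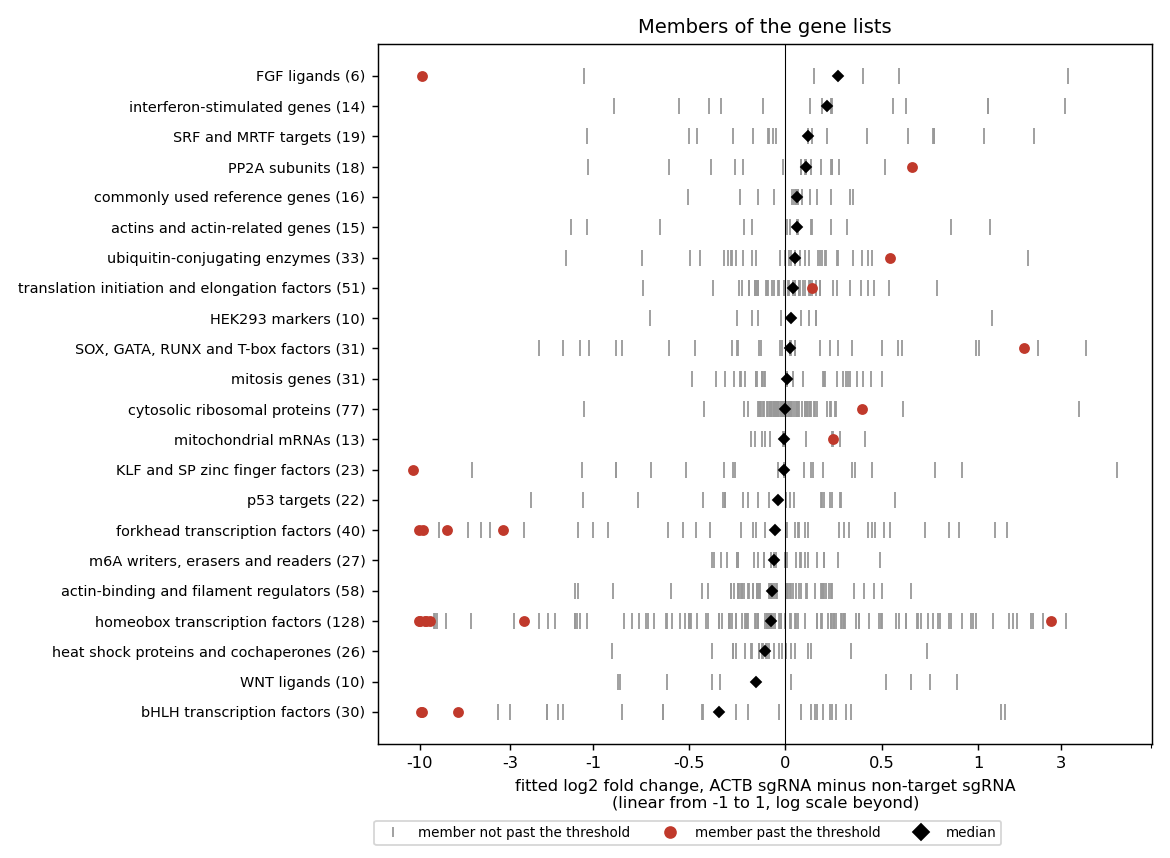
Fitted log2 fold change, ACTB minus non-target guide, of the measured members of 22 gene lists (number measured in brackets), on an axis that is linear from -1 to 1 and logarithmic beyond, with members past the threshold in red and the list median as a diamond. List medians stay within 0.35 of zero, and the red points far to the left belong to the transcription factor and FGF lists.

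The size of difference that the fit of the 6 libraries with a guide could resolve depended on the level of the gene. That level is the mean CPM over all 6 libraries, which lies below the non-target level for genes near 0 with the other guides. For the 2797 genes at 5 to 20 CPM the median half-width of the 95% interval was 1.4 on the log2 scale, and 18 of the lower calls lay in this range. It was 0.692 for 6125 genes at 20 to 100 CPM, 0.365 for 2373 genes at 100 to 500 CPM and 0.164 for 219 genes above 500 CPM, where the 3 calls were all higher. For the 1294 genes under 5 CPM it was 3.08, so that most changes in them were not detectable at this depth.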

How the data were processed

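The authors deposited whole-number read counts per gene symbol for 9 libraries, and the column totals differ as raw counts do. Tools and a build named in the submitters' processing notes, without their roles, are STAR 2.7.10b, cutadapt 4.3, deepTools and hg38. For counting, the tool, strand setting and gene models were not given in the sources used here, so reads of overlapping genes on opposite strands cannot be told apart. Most small counts were even, so both mates of a pair appear to have been counted. Of 19969 symbols 19283 matched a RefSeq gene of GRCh38.p14, the source of coordinates and promoter windows, and 686 did not.

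The 6 libraries with a guide were fitted together by guide with edgeR 4.0.16 in R 4.3.3 (filterByExpr, TMM scaling, quasi-likelihood F test, two-sided), with Benjamini-Hochberg adjustment over 12808 genes at 0.05. Adjusted p-values of genes come from edgeR where no other tool is given. CPM of single genes are counts scaled by the TMM library size, while summed list levels and input levels use the unscaled column total, and a standard error (SE) is the log2 fold change divided by the square root of F. Named genes were all those past the threshold, ACTB, ACTG1, METTL3, members of 28 gene lists past the threshold or with the smallest p, and genes of the presence scan. The comparison, its members and the lists were chosen with earlier results of these data known. Alternatives covered scaling, filters, DESeq2 1.42.0, 4 or 9 libraries in the fit, blocking by replicate number, halved counts and each library left out. Input libraries entered a fit only in the 9-library alternative, and are otherwise given as counts or CPM. Results for 6 genes are not reported here.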

Additional observations from a re-analysis of the deposited data

Results flagged for a closer look

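The 3 input libraries, which are in neither group compared, held higher shares of 3 called genes than any of the 4 ACTB and non-target guide libraries. EMX1 was at a mean of 745 CPM in the inputs (1000, 453 and 779), against at most 70.4 CPM in the 4 libraries. MT-CO1 was at a mean of 15200 CPM (15900, 14000 and 15700), against at most 1820 CPM. This was not particular to MT-CO1, since the 13 mitochondrial mRNAs together were at 77960, 77080 and 75180 CPM in the inputs. Their sum was 6391 and 5842 CPM with the ACTB guide and 5899 and 5631 CPM with the non-target guide. RUNX1 was at a mean of 350 CPM (562, 203 and 283), against at most 47 CPM. All CPM in this paragraph, those of the 4 libraries included, are counts over the unscaled library total, so they differ slightly from the TMM-scaled levels above, and the inputs are shallower.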

How the results depend on the processing

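Of the 32 calls, 8 (FEZF2, KLF1, MEOX2, FOXI1, LHX5, FOXE3, EMX1 and FGF3) held under every alternative in which the gene was tested, and 24 were lost under at least 1. FGF3 was not tested with a minimum mean of 10 CPM. The count of 32 became 21 with a mean of at least 10 CPM (fewer genes tested), 66 in DESeq2, 16 with 9 libraries in the fit, and 18 to 35 with a library left out. Of the 32 named genes, 21, 30, 16 and 15 to 31 were still called under these, and the 23 calls among list members became 15, 29, 13 and 12 to 23. Against the con guide the 4 calls became 7 with no filter, 0 with 9 libraries, and 0 to 3 with a library left out. The presence scan gave 18 genes instead of 28 with at most 3 and at least 40 counts, and 37 with at most 1 and at least 10, both chosen after the data were seen. The log2 fold change of ACTB ran from -0.016 (without ACTB replicate 1) to 0.063 with a library left out, and that of METTL3 from -0.12 to 0.025, changing sign without ACTB replicate 2 (0.025) and without non-target replicate 1 (0.0098). The causes of these changes were not tested beyond the filter. Replicate numbers did not pair the libraries: deviations from the guide means correlated at -0.00537 between ACTB and non-target, 0.00683 between ACTB and con, and -0.0138 between con and non-target over 10395 genes. With the replicate number as a block 31 genes passed, where IRX1 (adjusted p = 0.08) and FOXQ1 (0.0518) were lost and RPS2 (0.0062) was gained. Library-size scaling, RLE factors and halved counts gave 31, 31 and 32 calls. Medians of the actin-binding, bHLH, heat shock, p53, interferon-stimulated and reference lists kept their sign under every alternative, and those of the other lists with 5 or more measured members changed sign under 1 to 6. Depth limits the low genes: most of the lower calls rest on fewer than 150 counts in each non-target library.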
